A study of Mus musculus with 16 samples.

Results

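The postsynaptic density is the protein lattice under the membrane of an excitatory synapse, and the genes described here encode its scaffolds and signalling proteins, without the receptor subunits. The list holds 41 genes, chosen by name with earlier results of these data known. Every probe whose symbol, or whose older alias with the same gene number, belonged to one of them was taken. Of these 41 genes, 33 had a probe in the deposited table, out of 17567 genes with a named probe, and they were read by 51 of 25697 probes. Where a gene had several probes, the probe of highest mean signal over all arrays stood for it. Shank1, Homer2, Homer3, Lin7a, Begain, Ddn, Synpo and Iqsec1 were not analysed here. Dlg1, Shank2 and Rasgrf2 had a probe that was not well above background on enough arrays to be tested, so that 30 members entered the comparisons with age.

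RNA of the hippocampus was measured on Illumina MouseRef-8 v2 bead arrays in mice of the C57BL/6J background. Mef2c-het mice carried 1 conventional exon 2-deleted allele of Mef2c, the gene of the transcription factor MEF2C, in all tissues and from conception, and WT mice were their littermates. The labels call the Mef2c-het mice KO. Neither group was treated, and 4 arrays were made of each genotype at postnatal day (P) 1 and P30, 16 arrays in all, with no sex, litter or chip in the labels. Nothing in the labels says how many mice an array holds, so p-values measure the spread between these samples. Values are log2 signals after quantile normalization, and a difference of 1 is a doubling of signal. A level can be compared between arrays for the same probe and not between probes.

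In an excitatory synapse, membrane-associated guanylate kinases (MAGUKs) such as Dlg4 hold glutamate receptors and their auxiliary subunits in the membrane. SAPAP proteins, the products of the Dlgap genes, link the MAGUKs to Shank proteins, which in turn reach Homer proteins and the actin of the dendritic spine. Calcium that enters through the receptors acts on kinases, cyclases, calmodulin-binding proteins and exchange factors of small GTPases that are held in the same lattice. In the rodent hippocampus most synapses form in the first weeks after birth. MEF2 factors are regulated by neuronal activity and are known for controlling the number of excitatory synapses.

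Probes detected on an array (detection p under 0.05) numbered 12638 to 14150, and no arrays held identical values. Of Mef2c itself, 1 of the 2 detected probes read 9.56, 9.75, 9.75 and 9.57 on the WT arrays at P30 and 9.16, 9.71, 8.93 and 9.87 on the Mef2c-het arrays, and the groups overlapped (log2 difference -0.24, two-sided exact permutation p = 0.371). The other detected probe differed by -0.29 at P30 (exact permutation p = 0.2) and by 0.07 at P1 (exact permutation p = 0.714). Whether these probes lie in the deleted exon is not known here, so they do not check the labels. The arrays of each age were divided into 2 clusters by the correlation of whole arrays, a step that always returns 2. The smaller cluster held 3 of 8 arrays at P30 (replicate 7 of each genotype and WT replicate 6) and 2 of 8 at P1 (replicate 8 of each genotype). These are called the arrays that stood apart. Their background was brighter, with 5th percentiles of signal between 143.8 and 158.4 (P30) and between 140.0 and 161.4 (P1), where those of the remaining arrays lay between 105.8 and 124.6 and between 109.4 and 130.8. What these arrays share is not in the labels, and members whose values moved most without them are given with and without them. Of the neuron markers, Rbfox3, Syt1 and Eno2 were detected on all 16 arrays, Snap25 and Nefl on none, and of 9 markers of hippocampal principal neurons 7 were detected on every WT P1 array and 8 on every WT P30 array.

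From P1 to P30, the postsynaptic members rose in the WT hippocampus. Because the list was chosen with earlier results of these data known, the shares given here describe it and do not test it. Of 30 members tested, 28 were called higher and 0 lower (limma, Benjamini-Hochberg adjusted p under 0.05 over all probes tested), where 59.7% of all 14777 probes were called, 28.0% higher and 31.7% lower. The WT P30 and WT P1 arrays did not overlap for 28 of the 30 members, against 53.1% of all probes, with 25.3% of all probes higher at P30. The median log2 difference of the members was 1.09 and their range 0.16 to 5.51, where the median of all probes was -0.03. Of the 30 members, 26 were detected at each age alone, and 24 of these 26 were called higher, against 28.6% of the 12594 probes detected at both ages. The other 4, Dlgap1, Shank3, Lrrc7 and Cacng8, passed the detection filter through their P30 arrays, so that a rise was fixed by the filter for them. The 4 largest rises were those of Rasgrf1, Itpka, Rin1 and Icam5, and the 2 members that were not called, Cacng2 and Cyfip2, also had a higher mean at P30.

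**Figure D1:**
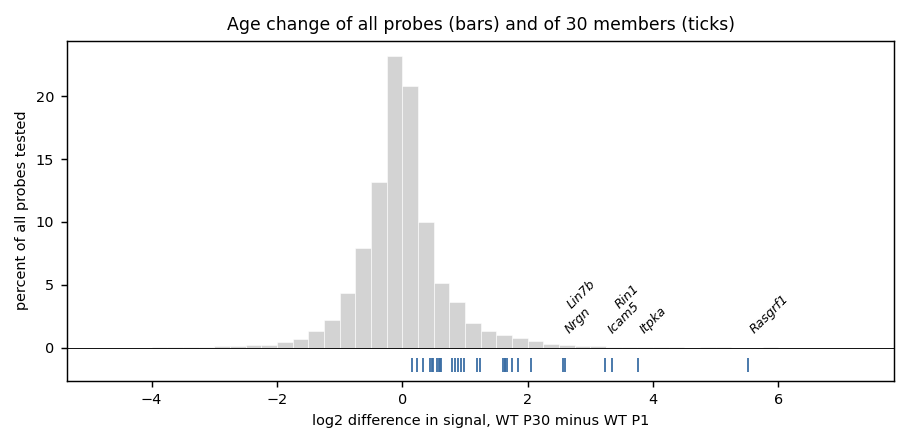
Distribution of the log2 difference in signal between WT P30 and WT P1 over all 14777 probes tested (grey bars, as a percent of probes in steps of 0.25) and the same difference of the 30 postsynaptic members (blue ticks under the axis, the 6 largest named). All 30 ticks lie above 0, between 0.16 and 5.51, while the bars spread to both sides of 0.

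In the Mef2c-het hippocampus, measured on other arrays, 28 of the 30 members were again called higher and 0 lower, where 58.3% of all probes were called, 26.9% higher and 31.4% lower. The ages did not overlap for 27 of the 30, against 52.5% of all probes, with 24.3% of all probes higher at P30. Their median log2 difference was 1.24 and their range 0.13 to 5.28. Of the 26 members detected at both ages, 24 were called higher, against 27.5% of such probes. There were 27 members called in both genotypes, and 15 of 30 rose by more than 1 log2 unit in both. Cyfip2 was called in Mef2c-het mice and not in WT mice, and Kalrn in WT mice and not in Mef2c-het mice. Neither was stable in Mef2c-het mice, where Cyfip2 was called in 8 of 17 alternatives (limma adjusted p up to 0.124) and Kalrn in 6 of 17. The difference between the genotypes was tested for each member and is given with the genotype comparisons.

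**Figure D2:**
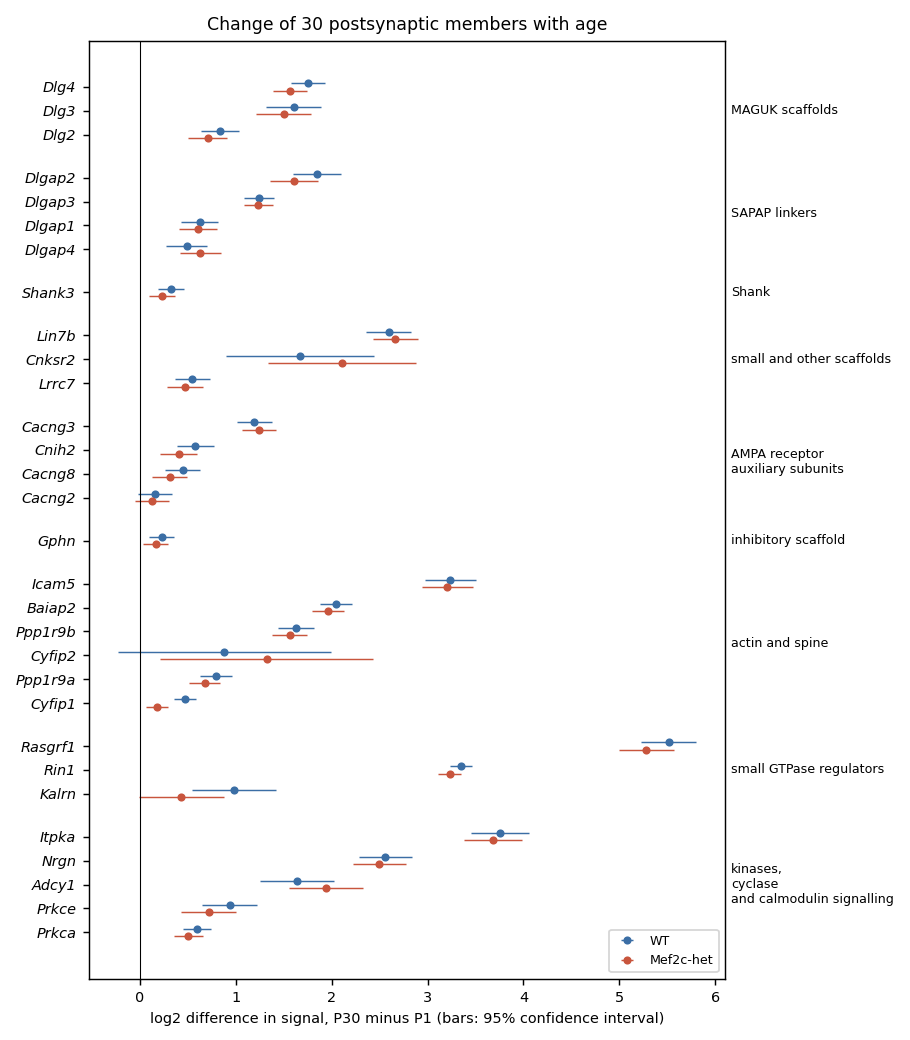
Log2 difference in signal between P30 and P1 for each of the 30 tested members, grouped by role, in WT (blue) and Mef2c-het (red) mice, with 4 arrays per group. Points are estimates and bars 95% confidence intervals of the limma fit, widest for Cyfip2 and Cnksr2, and Rasgrf1 lies farthest to the right in both genotypes (5.51 and 5.28).

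Among the MAGUK scaffolds, 3 of 3 tested members were called higher with age in both genotypes. The shares of all probes called higher were 28.0% in WT and 26.9% in Mef2c-het mice. In the lists that follow, arrays stand in the order of their replicate numbers, 1, 4, 5 and 8 for WT P1, 1, 2, 4 and 8 for Mef2c-het P1, 2, 3, 6 and 7 for WT P30, and 3, 5, 6 and 7 for Mef2c-het P30. Dlg4, the most abundant MAGUK of mature excitatory synapses, read 8.47, 8.54, 8.43 and 8.60 at P1 and 10.17, 10.39, 10.25 and 10.22 at P30 in WT mice. In Mef2c-het mice Dlg4 read 8.48, 8.52, 8.47 and 8.50 at P1 and 9.93, 10.26, 9.84 and 10.20 at P30. All P30 arrays were above all P1 arrays, and the rise was 1.75 ± 0.084 (SE, n = 4 per age; 3.37-fold, limma adjusted p = 2.78e-11) in WT and 1.56 ± 0.084 (2.96-fold, limma adjusted p = 1.15e-10) in Mef2c-het mice. Dlg3, which is prominent at young synapses, rose by 1.60 in WT and 1.50 in Mef2c-het mice, and Dlg2 by 0.84 and 0.71. The probe of Dlg1 was not well above background on any WT array, with mean log2 signals of 7.14 at P1 and 7.26 at P30.

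All 4 SAPAP linkers were called higher with age in both genotypes, against 28.0% (WT) and 26.9% (Mef2c-het) of all probes. The detection filter fixed the direction for Dlgap1. Dlgap2 rose most, with 8.13, 7.76, 8.08 and 8.21 at P1 and 9.90, 9.71, 10.08 and 9.90 at P30 in WT mice. In Mef2c-het mice Dlgap2 read 8.06, 8.10, 8.01 and 8.49 at P1 and 9.68, 9.90, 9.61 and 9.90 at P30. The ages did not overlap, and the rise was 1.85 ± 0.118 (SE) in WT (limma adjusted p = 9.74e-10) and 1.61 ± 0.118 in Mef2c-het mice (limma adjusted p = 5.74e-09). Dlgap3 rose by 1.24 in each genotype. Dlgap1 rose by 0.62 and 0.61 and was detected on 2 of 4 WT arrays at P1 and on 0 of 4 Mef2c-het arrays, for which its rise was at least 1.48-fold. Dlgap4, the brightest of its probes taken, rose by 0.49 and 0.63.

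Shank3, the Shank protein linked to autism and Phelan-McDermid syndrome, was dim. Its log2 signal was 7.13, 7.05, 7.10 and 7.05 on the WT arrays at P1 and 7.32, 7.42, 7.52 and 7.38 at P30. On the Mef2c-het arrays Shank3 read 7.10, 7.13, 7.17 and 7.07 at P1 and 7.21, 7.51, 7.30 and 7.37 at P30. Shank3 was detected on 0 of 8 arrays at P1, on 4 of 4 WT arrays and on 2 of 4 Mef2c-het arrays at P30. The fit gave a difference of 0.33 in WT and 0.23 in Mef2c-het mice, whose direction the detection filter fixed. As a bound against the lowest detected signal, the rise in WT mice was at least 1.07-fold. Shank2 was not well above background on any array.

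Of the small and other scaffolds, Lin7b, a PDZ protein that forms a complex with Cask, rose most. Its log2 signal was 9.26, 8.82, 9.33 and 9.12 at P1 and 11.95, 11.71, 11.68 and 11.59 at P30 in WT mice, a rise of 2.59 ± 0.111 (SE; 6.04-fold, limma adjusted p = 6.68e-12). In Mef2c-het mice Lin7b read 9.14, 8.99, 9.31 and 9.29 at P1 and 11.92, 11.97, 11.81 and 11.68 at P30, a rise of 2.67 ± 0.111 (6.35-fold, limma adjusted p = 5.20e-12). The lowest P30 array read 11.59 and the highest P1 array 9.33. Lrrc7 (densin) rose by 0.55 in WT and 0.47 in Mef2c-het mice, from a level detected on 1 of 4 arrays of each genotype at P1. The detection filter fixed the direction for Lrrc7. Cnksr2, a scaffold of Ras signalling, is described with the arrays that stood apart.

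The auxiliary subunits of AMPA receptors, which carry the receptors to the synapse and slow their closing, had a median difference of 0.51 in WT and 0.36 in Mef2c-het mice. In each genotype 3 of 4 were called, among them Cacng8, whose direction the detection filter fixed. Of all probes, 28.0% were called higher in WT and 26.9% in Mef2c-het mice. Cacng3 read 7.63, 7.63, 7.54 and 7.72 at P1 and 8.76, 8.89, 8.84 and 8.82 at P30 in WT mice. In Mef2c-het mice Cacng3 read 7.56, 7.62, 7.49 and 7.49 at P1 and 8.75, 8.99, 8.49 and 8.91 at P30. The ages did not overlap, with a rise of 1.20 ± 0.085 (SE; limma adjusted p = 3.59e-09) in WT and 1.25 ± 0.085 (limma adjusted p = 2.34e-09) in Mef2c-het mice. Cnih2, a cornichon protein, rose by 0.58 and 0.41, and Cacng8 by 0.45 and 0.31. Cacng8 was detected on 1 of 4 WT arrays and on 0 of 4 Mef2c-het arrays at P1, and its rise in Mef2c-het mice was at least 1.11-fold. Cacng2 (stargazin) was not called in either genotype, with 0.16 (95% confidence interval -0.02 to 0.33, limma adjusted p = 0.117) in WT and 0.13 (-0.05 to 0.30, limma adjusted p = 0.211) in Mef2c-het mice.

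Gphn encodes gephyrin, the scaffold of GABA and glycine receptors and the only member of the list from the inhibitory synapse. Its log2 signal was 10.53, 10.43, 10.50 and 10.46 at P1 and 10.74, 10.82, 10.64 and 10.64 at P30 in WT mice, and 10.41, 10.52, 10.54 and 10.53 at P1 and 10.60, 10.63, 10.80 and 10.64 at P30 in Mef2c-het mice. The ages did not overlap, but the rise was small, 0.23 ± 0.061 (SE; 1.17-fold, limma adjusted p = 0.00371) in WT and 0.17 ± 0.061 (1.12-fold, limma adjusted p = 0.0256) in Mef2c-het mice. With each array scaled to a common median the rise was 0.15 in WT and 0.12 in Mef2c-het mice and neither was called (limma adjusted p = 0.382 and 0.505). In Mef2c-het mice the call of Gphn held in 12 of 17 alternatives. The 3 probes of Gphn differed by 0.22 to 0.34 in WT mice, of which 2 were called. In Mef2c-het mice only the probe taken was called. The others gave 0.19 (limma adjusted p = 0.0913) and 0.09 (limma adjusted p = 0.372).

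Of 6 tested genes of spine actin and adhesion, 5 were called higher in WT and 6 in Mef2c-het mice, against 28.0% and 26.9% of all probes. Cyfip2, not called in WT mice, is described with the arrays that stood apart. Icam5 (telencephalin), an adhesion molecule of the dendrites of forebrain neurons, read 8.05, 7.58, 7.92 and 8.11 at P1 and 10.99, 11.13, 11.27 and 11.24 at P30 in WT mice. In Mef2c-het mice Icam5 read 7.75, 7.86, 7.91 and 8.29 at P1 and 10.99, 11.12, 11.25 and 11.29 at P30. The rise was 3.24 ± 0.124 (SE; 9.44-fold, limma adjusted p = 1.72e-12) in WT and 3.21 ± 0.124 (9.23-fold, limma adjusted p = 2.31e-12) in Mef2c-het mice. Baiap2, which couples Rac and Cdc42 to actin, rose by 2.05 in WT and 1.96 in Mef2c-het mice. Spinophilin (Ppp1r9b), which binds actin and a protein phosphatase, rose by 1.63 and 1.56, and its relative neurabin (Ppp1r9a) by 0.80 and 0.68. Cyfip1, a subunit of the WAVE actin regulator, rose by 0.47 (1.39-fold, limma adjusted p = 1.09e-06) in WT and by 0.18 (1.13-fold, limma adjusted p = 0.00938) in Mef2c-het mice, where the call was lost with median scaling (0.14).

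The regulators of small GTPases held the largest rise of all members. Rasgrf1, a calcium-dependent exchange factor for Ras and Rac, read 9.25, 8.86, 8.52 and 9.09 at P1 and 14.41, 14.32, 14.50 and 14.53 at P30 in WT mice. In Mef2c-het mice Rasgrf1 read 9.01, 8.91, 9.15 and 9.42 at P1 and 14.33, 14.29, 14.43 and 14.56 at P30. The rise was 5.51 ± 0.134 (SE; 45.6-fold, limma adjusted p = 9.12e-15) in WT and 5.28 ± 0.134 (38.8-fold, limma adjusted p = 1.64e-14) in Mef2c-het mice. The P30 arrays ranged from 14.29 to 14.56 and the P1 arrays from 8.52 to 9.42. Rin1, an effector of Ras that acts on Rab and Abl proteins, rose by 3.35 ± 0.055 (10.2-fold) in WT and by 3.23 ± 0.055 (9.38-fold) in Mef2c-het mice. Its P1 level was near the detection limit, with 3 of 4 WT arrays detected, so the size of the rise depends on the processing. Over 17 alternatives the rise of Rin1 was 3.29 to 5.13 in WT and 3.21 to 4.74 in Mef2c-het mice. Kalrn (kalirin), an exchange factor for Rac, rose by 0.98 ± 0.208 in WT mice (limma adjusted p = 0.000642), and its difference in Mef2c-het mice was 0.43 ± 0.208 (limma adjusted p = 0.0861).

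All 5 genes of kinase, cyclase and calmodulin signalling were called higher in both genotypes, against 28.0% (WT) and 26.9% (Mef2c-het) of all probes. Itpka, which phosphorylates inositol trisphosphate and bundles actin in spines, read 8.93, 8.29, 8.54 and 8.90 at P1 and 12.27, 12.36, 12.62 and 12.43 at P30 in WT mice. In Mef2c-het mice Itpka read 8.70, 8.48, 8.89 and 9.09 at P1 and 12.57, 12.37, 12.49 and 12.45 at P30. Its rise was 3.76 ± 0.141 (SE; 13.5-fold, limma adjusted p = 1.41e-12) in WT and 3.68 ± 0.141 (12.8-fold, limma adjusted p = 2.11e-12) in Mef2c-het mice. Neurogranin (Nrgn), which binds calmodulin when calcium is low, read 10.76, 10.22, 10.50 and 10.42 at P1 and 13.15, 12.93, 13.14 and 12.93 at P30 in WT mice, a rise of 2.56 ± 0.132 (SE; 5.90-fold, limma adjusted p = 6.38e-11). In Mef2c-het mice Nrgn read 10.49, 10.24, 10.74 and 10.94 at P1 and 13.02, 13.03, 13.20 and 13.15 at P30, a rise of 2.50 ± 0.132 (5.65-fold, limma adjusted p = 8.85e-11). The P1 arrays of Nrgn ranged from 10.22 to 10.94 and the P30 arrays from 12.93 to 13.20. Adcy1, an adenylyl cyclase stimulated by calmodulin, rose by 1.64 and 1.94, and the protein kinase C genes Prkce and Prkca by 0.94 and 0.60 in WT and by 0.72 and 0.51 in Mef2c-het mice.

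**Figure D3:**
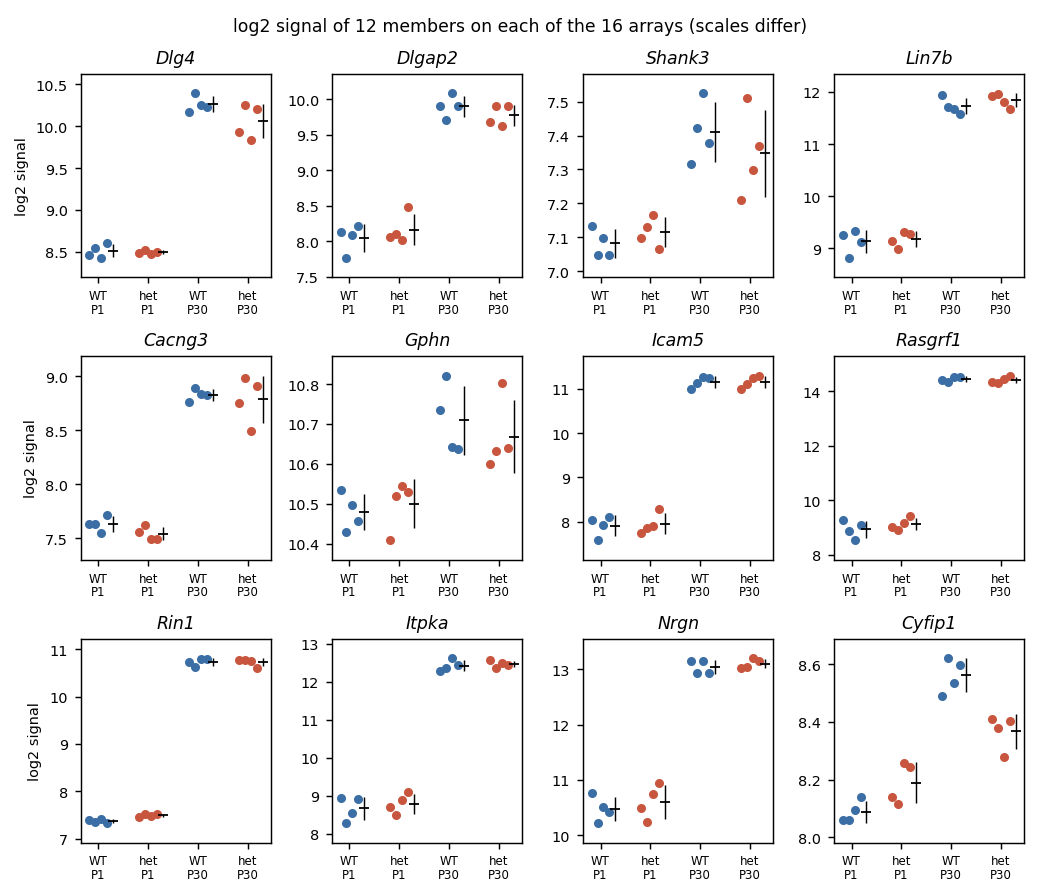
Log2 signal of 12 members on each of the 16 arrays (points; blue WT, red Mef2c-het), with the mean and SD of the 4 arrays of a group in black and a scale of its own in each panel. The P30 arrays lie above the P1 arrays for all 12 members, and for Cyfip1 the 4 Mef2c-het arrays at P30 lie below the 4 WT arrays at P30.

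Members with several probes were read in the same direction by most of them but not to the same extent. Over all 51 probes of the members, 46 were tested, of which 41 were called higher and 0 lower in WT mice, and 41 higher and 1 lower in Mef2c-het mice. The shares of all probes were 28.0% higher and 31.7% lower in WT, and 26.9% and 31.4% in Mef2c-het mice. Of the 46 probes, 38 were also tested on the P1 arrays alone. The rest passed the detection filter through their P30 arrays, which fixed their direction. The probe called lower in Mef2c-het mice was the second probe of Dlgap4 (-0.30, limma adjusted p = 0.0271; -0.20 in WT, limma adjusted p = 0.125), against 0.63 for the probe taken for that gene. In WT mice the tested probes of Rasgrf1 gave rises from 2.23 to 5.51, those of Lin7b from 0.95 to 2.59, those of Dlgap2 from 0.41 to 1.85, those of Baiap2 from 0.69 to 2.05 and those of Cnksr2 from 0.58 to 1.67. The lowest value for Rasgrf1 comes from a probe that was not detected on any P1 array, where the rise was at least 4.23-fold in WT and at least 4.32-fold in Mef2c-het mice. With the mean of all tested probes of a gene, the median rise of the members was 0.96 in WT and 0.94 in Mef2c-het mice.

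Cyfip2, Cnksr2 and Kalrn differed between the arrays that stood apart and the rest more than any other member. Cyfip2, a WAVE complex subunit like Cyfip1, read 8.92, 9.28, 9.35 and 7.84 at P1 and 10.67, 10.38, 9.00 and 8.87 at P30 in WT mice. In Mef2c-het mice Cyfip2 read 8.84, 9.48, 9.13 and 7.87 at P1 and 10.20, 10.99, 10.73 and 8.71 at P30. The arrays that stood apart were the lowest at each age, by a mean of -1.73 at P30 and -1.31 at P1, and at P30 they read 8.71 to 9.00, near the 8.84 to 9.48 of the other P1 arrays. Among all probes, 0.135% at P30 and 0.393% at P1 had a larger gap than Cyfip2. On all arrays the rise of Cyfip2 was 0.88 ± 0.523 (SE; limma adjusted p = 0.160) in WT and 1.33 ± 0.523 (limma adjusted p = 0.0392) in Mef2c-het mice. Without the arrays that stood apart it was 1.35 ± 0.216 (limma adjusted p = 9.24e-05) in WT and 1.50 ± 0.193 (limma adjusted p = 1.04e-05) in Mef2c-het mice, so that Cyfip2 was then called in both genotypes.

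The probe taken for Cnksr2 read 8.07, 8.04, 8.33 and 7.60 at P1 and 10.51, 10.22, 8.95 and 9.04 at P30 in WT mice, and 8.11, 8.10, 8.05 and 7.57 at P1 and 10.24, 10.53, 10.54 and 8.95 at P30 in Mef2c-het mice. The arrays that stood apart were again the lowest, by -1.43 at P30 and -0.53 at P1, though all P30 arrays of a genotype stayed above its P1 arrays. The rise of Cnksr2 was 1.67 ± 0.364 (SE) in WT and 2.11 ± 0.364 in Mef2c-het mice, and 2.25 ± 0.120 and 2.38 ± 0.108 without the arrays that stood apart. The second probe of Cnksr2 did not share this gap, which was 0.07 at P30 and 0.23 at P1. Kalrn went the other way, 0.54 higher on the arrays that stood apart at P30 and 0.42 higher at P1. Without these arrays Kalrn rose by 0.93 ± 0.172 (limma adjusted p = 0.000337) in WT and by 0.38 ± 0.154 (limma adjusted p = 0.0446) in Mef2c-het mice, and was then called in both. The part of the brighter background of these arrays in the gaps was not tested.

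**Figure D4:**
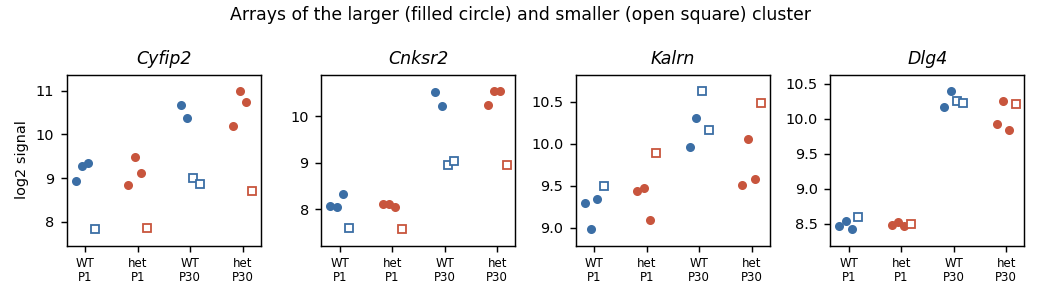
Log2 signal of Cyfip2, Cnksr2, Kalrn and, for comparison, Dlg4 on each of the 16 arrays (blue WT, red Mef2c-het), with the arrays that stood apart as open squares and the others as filled circles. The open squares are the lowest of their group for Cyfip2 and Cnksr2, and for Dlg4 they lie within the range of the filled circles of their group, except WT P1 replicate 8, the highest of its group (8.60).

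Other postsynaptic genes outside the list moved in both directions. Of 52 such genes, 45 were tested. In WT mice 29 were called higher and 9 lower from P1 to P30, with a median of 0.60 over a range of -1.90 to 3.93. In Mef2c-het mice 28 were called higher and 9 lower, with a median of 0.44. Of all probes, 28.0% were called higher and 31.7% lower in WT mice, and 26.9% and 31.4% in Mef2c-het mice. Among the largest rises in WT mice were those of Camk2a, the main kinase of the postsynaptic density (3.93), and of the activity-regulated gene Arc (3.57). The largest falls were those of the actin-severing protein gene Cfl1 (-1.90), of Mapt, which encodes the microtubule protein tau (-1.52), and of Limk1, the kinase of cofilin (-1.04). In Mef2c-het mice Camk2a differed by 3.75, Arc by 3.39, Cfl1 by -2.07, Mapt by -1.69 and Limk1 by -0.97, all called. Cask, the partner of Lin7b, and Lin7c, its relative, were among those called lower in WT mice, together with Cacng4, Dbn1, Grip1 and Pick1.

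Markers of cell types changed with age as well. All 3 tested neuron markers rose in WT mice (median 2.16), and the summed signal of the 5 listed went from 6963 to 9359 at WT P1 to 29383 to 32779 at WT P30. Of 9 markers of hippocampal principal neurons, 6 rose and 2 fell, all 6 tested markers of GABAergic interneurons rose (median 1.29), and all 5 of astrocytes rose (median 2.07). All 5 oligodendrocyte markers rose (median 5.20), with a summed signal of 1422 to 1751 at WT P1 and 76215 to 82934 at WT P30, and Mog and Mobp were not detected on any WT P1 array. Of 5 microglia markers, 4 rose (median 0.69), 2 of 4 endothelial markers rose and 2 fell, and 1 of 3 choroid plexus markers rose. All 3 tested markers of proliferating cells fell (median -2.19), as did the 3 tested of immature neurons (median -4.23). Of blood, 2 of 3 markers fell, of thalamus 2 rose and 1 fell, and of striatum the 1 tested marker rose by 0.18 while Adora2a and Gpr6 were not detected on any array. The part of these changes in the rises of the members was not tested. In whole tissue, more cells of a type and more RNA per cell cannot be told apart.

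Promoters of the members are shown because MEF2C is a DNA-binding factor and because these genes rose together. RefSeq (GRCm38.p6) gives 52 promoters, from 250 bases before to 50 after the start, for 34 of the 41 genes. The consensus motif of MEF2 was found on either strand in 2 of the 52 (3.85%), those of Dlg1 and Dlg2, against 3.19% of all 32851 promoters. The cAMP response element TGACGTCA was in 0 of them, against 1.79% of all, and its shorter form TGACG, which the longer one contains, in 19.2%, against 20.8% of all. The E-box CACGTG was in 8 of the 52 (15.4%), against 7.15% of all. These 8 belong to 6 genes, Adcy1, Begain, Dlg1, Dlgap1, Ppp1r9a and Rasgrf2, of which Begain, Dlg1 and Rasgrf2 were not tested. Begain and Dlg1 count more than once, and the promoters of Begain overlap and share the same match. The members' promoters had a median GC content of 65.3% against 52.7%. The stretches below run from the 5′ to the 3′ end of the gene's strand, with the match in capitals, and all 5 genes lie on the plus strand. They show the short cAMP response element (in Rasgrf1 on the opposite strand), the E-box and the MEF2 motif:
Rasgrf1, chr9:89909582-89909681, bases -193 to -94: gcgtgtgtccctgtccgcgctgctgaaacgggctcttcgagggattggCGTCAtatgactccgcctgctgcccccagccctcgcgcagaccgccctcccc
Dlg4, chr11:70023858-70023957, bases -124 to -25: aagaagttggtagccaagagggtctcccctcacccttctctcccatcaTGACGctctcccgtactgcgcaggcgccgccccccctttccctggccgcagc
Adcy1, chr11:7063217-7063316, bases -216 to -117: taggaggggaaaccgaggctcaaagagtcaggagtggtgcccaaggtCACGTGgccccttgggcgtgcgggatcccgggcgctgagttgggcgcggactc
Dlg1, chr16:31754219-31754278, bases -131 to -72: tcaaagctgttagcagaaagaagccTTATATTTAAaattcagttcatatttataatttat
Dlg2, chr7:91090785-91090814, bases -1 to 29: gggcacaatgCTATATATAGccaatgaaga
Bases are counted from the start, the first transcribed base being 1. These matches are a description and not binding sites. Of the genes shown, Rasgrf1 rose by 5.51, Dlg4 by 1.75, Adcy1 by 1.64 and Dlg2 by 0.84 in WT mice, and Dlg1 was not tested.

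Between the genotypes at P30, no member passed the adjusted threshold. Of 30 members tested, 0 were called by limma (adjusted p under 0.05), where 0.00746% of 13413 probes were called, and 1 had an unadjusted p under 0.05, where 2.36% of all probes had one. The median log2 difference, Mef2c-het minus WT, was -0.05, with 22 members lower and 8 higher, beside a median of -0.01 over all probes. For 25 of the 30 members the 95% confidence interval lay within 0.5 log2 units of 0 on both sides, and for 28 within 1. The widest intervals were those of Cyfip2 and Cnksr2.

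Cyfip1 was the member with the smallest unadjusted p at P30. After normalization of the P30 arrays alone it read 8.37, 8.34, 8.25 and 8.37 in Mef2c-het mice and 8.46, 8.59, 8.50 and 8.57 in WT mice. Every Mef2c-het array was below every WT array, as for 1 of 30 members. Of all probes, 1.75% did not overlap and 1.18% were lower throughout. The difference was -0.19 ± 0.061 (SE; 1.14-fold lower, two-sided exact permutation p = 0.0286, the smallest that 4 against 4 arrays allow), and it did not pass the correction (limma adjusted p = 0.976). Without the arrays that stood apart it was -0.20 ± 0.087 (limma adjusted p = 0.985).

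Dlg4 read 9.88, 10.22, 9.79 and 10.16 in Mef2c-het mice and 10.13, 10.35, 10.21 and 10.18 in WT mice at P30. Mef2c-het replicates 3 and 6 were below all WT arrays and the other 2 lay among them, a difference of -0.21 (95% confidence interval -0.44 to 0.02, exact permutation p = 0.2, limma adjusted p = 0.976). Without the arrays that stood apart the difference of Dlg4 was -0.28 ± 0.127 (SE; limma adjusted p = 0.985). Cacng2 read 7.55, 7.58, 7.45 and 7.69 in Mef2c-het mice and 7.56, 7.70, 7.81 and 7.74 in WT mice, with overlapping groups and a difference of -0.13 (-0.30 to 0.04, exact permutation p = 0.114). Kalrn read 9.46, 10.00, 9.53 and 10.45 in Mef2c-het mice and 9.91, 10.26, 10.59 and 10.11 in WT mice. The groups of Kalrn overlapped through Mef2c-het replicates 5 and 7, of which replicate 7 is among the arrays that stood apart, and the difference was -0.36 (-0.85 to 0.13, exact permutation p = 0.229). Without the arrays that stood apart it was -0.42 ± 0.158 (SE; limma adjusted p = 0.985). Shank3 differed by -0.06 between the genotypes at P30, Nrgn by 0.06, Itpka by 0.05, Rasgrf1 by -0.03 and Gphn by -0.04. The intervals of these 5 differences include 0, and the difference of Rasgrf1 changed sign in 2 of 18 alternatives. The 18 leave out the mean of its probes. The tested MAGUKs, SAPAP linkers and auxiliary subunits differed by -0.03 to -0.21, and none was called. Without the arrays that stood apart Dlg3 (0.01), Dlgap1 (0.12) and Cnih2 (0.04) were not lower. No list of cell type markers held a member called between the genotypes at either age.

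At P1, 26 members were tested, since Dlgap1, Shank3, Lrrc7 and Cacng8 were not detected on enough of the P1 arrays. None was called by limma, where 0.0% of 13566 probes were called, and 0 had an unadjusted p under 0.05, against 1.62% of all probes. The median difference was 0.04, with 17 members higher and 9 lower in Mef2c-het mice, beside a median of 0.00 over all probes, and 22 of the 26 intervals lay within 0.5 of 0. Rin1 had the smallest p, with 7.47, 7.54, 7.49 and 7.53 in Mef2c-het mice and 7.41, 7.36, 7.42 and 7.34 in WT mice. The 2 groups of Rin1 did not overlap, as for 1.29% of all probes (0.56% higher in Mef2c-het mice), but its level was near the detection limit, with 3 of 4 WT arrays detected. The difference of Rin1 was 0.13 ± 0.059 (SE; exact permutation p = 0.0286, limma adjusted p = 1.00), and it was 0.11 to 0.40 over 18 alternatives, the highest with normexp background correction.

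Cyfip1 at P1 read 8.17, 8.14, 8.29 and 8.28 in Mef2c-het mice and 8.09, 8.09, 8.12 and 8.17 in WT mice, and the groups overlapped (0.10, exact permutation p = 0.0571). Dlgap4 read 10.70, 10.52, 10.78 and 11.04 in Mef2c-het mice and 10.93, 11.03, 11.10 and 10.75 in WT mice at P1, a difference of -0.19 (exact permutation p = 0.229). The groups of Dlgap4 overlapped through replicate 8 of each genotype, the arrays that stood apart, and without them the difference was -0.35 ± 0.096 (SE; limma adjusted p = 1.00). The second probe of Dlgap4, also detected on every array, differed by -0.03 on all P1 arrays. Cacng3 read 7.57, 7.64, 7.50 and 7.51 in Mef2c-het mice and 7.65, 7.65, 7.56 and 7.74 in WT mice, a difference of -0.09 (exact permutation p = 0.114). With all arrays the groups of these 3 genes overlapped, and the limma adjusted p was 1.00 for each. Dlg4 differed by -0.02 between the genotypes at P1.

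**Figure D5:**
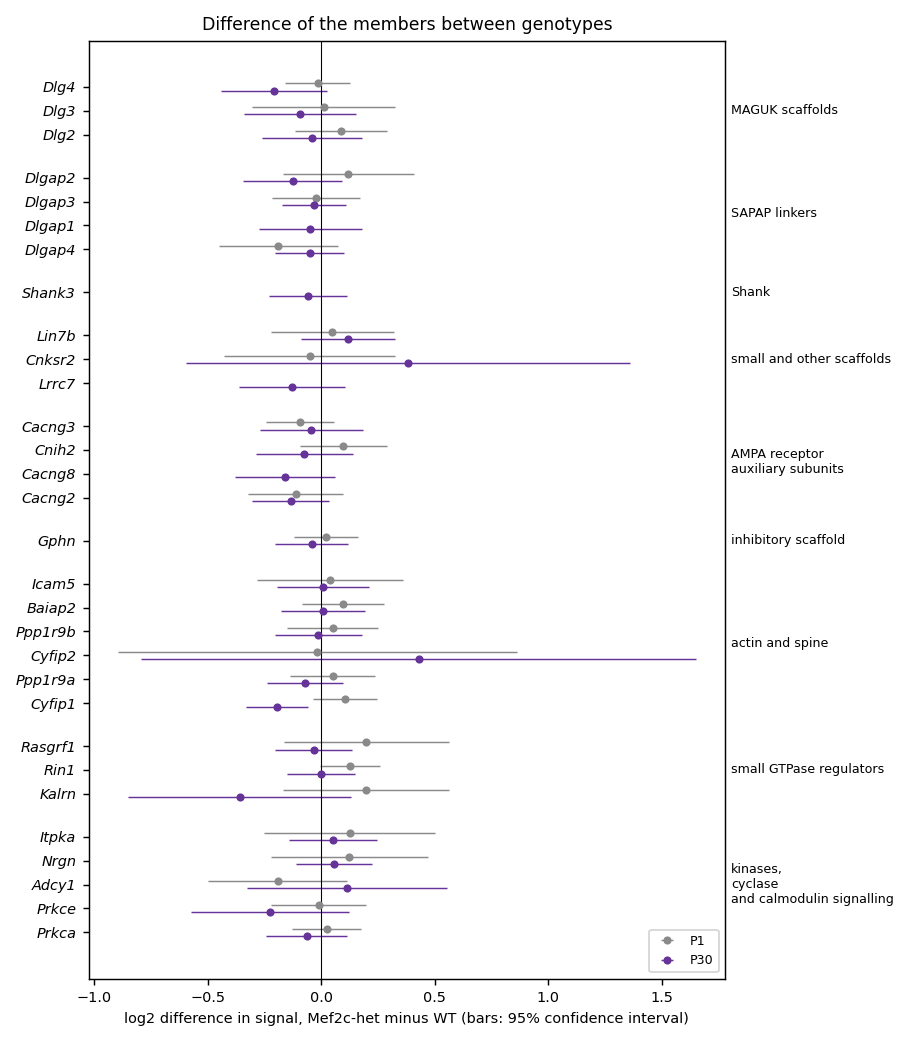
Log2 difference in signal between Mef2c-het and WT mice for each tested member at P1 (grey, 26 members) and P30 (purple, 30 members), grouped by role, with 4 arrays per group. Points are estimates and bars 95% confidence intervals of the limma fits, and only the interval of Cyfip1 at P30 (-0.33 to -0.06) leaves out 0 before correction.

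The genotype effect at P30 was also compared with that at P1 in 1 fit of all 16 arrays. Of 30 members, 0 were called by limma, where 0.0% of 14777 probes were called, and 1 had an unadjusted p under 0.05, against 2.96% of all probes. The median difference of the effects was -0.08, with 24 members lower and 6 higher, beside -0.01 over all probes. The smallest p was that of Cyfip1 (-0.29 ± 0.076, SE; limma adjusted p = 0.998), whose P30 and P1 values are given above. Kalrn followed with -0.55 ± 0.294 and Dlg4 with -0.19 ± 0.119 (limma adjusted p = 0.998 for both). Without the arrays that stood apart the value was -0.31 ± 0.111 for Cyfip1 and -0.55 ± 0.231 for Kalrn, and that of Dlgap4 went from 0.14 to 0.31 ± 0.128 (limma adjusted p = 0.994 for each). The other tested probes of Dlgap4 had the opposite sign on all arrays, -0.10 and -0.21. The smaller rise of Cyfip1 and of Kalrn with age in Mef2c-het mice than in WT mice therefore did not pass the test of the difference. Among the other postsynaptic genes 0 were called in each of the 3 genotype comparisons, with 1, 1 and 2 at an unadjusted p under 0.05 for P30, P1 and the difference.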

How the data were processed

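Hippocampal RNA of 16 samples was read on bead arrays. The deposited intensity of each probe was the scanner software's average over beads, above 0 and not normalized, with a detection p-value and a bead count deposited by the authors beside it. The lowest intensity was 92.8, and the median bead count per array was 36 to 39. Intensities were log2-transformed and quantile-normalized with limma 3.58.1 in R 4.3.3. A probe was tested where 4 or more arrays of a fit had detection p under 0.05. The tests (lmFit, eBayes) were two-sided and adjusted after Benjamini and Hochberg over all probes tested. Genotypes were compared on the 8 arrays of an age, and ages and the difference on all 16 arrays. Members were matched by Entrez number (22), accession (10) or symbol (1). Genes described array by array were the member of largest rise of each role, Dlg4, Shank3 and Nrgn, and those of smallest p between genotypes; Cyfip2 and Cnksr2 were added after their values were seen. The members and lists were chosen with earlier results of these data known. Of the other postsynaptic genes, the 3 largest rises and falls in WT mice were to be named, and 1 of them is not reported here. The fits were tested on simulated data. Bounds ("at least") used the lowest detected signal per array. The alternatives were another scaling, background, filter, probe rule, variance model and set of arrays, leaving out each array, and a replicate block. Counts over 17 or 18 alternatives, and counts of changed signs, leave out the probe rule, which is the mean of a gene's probes.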

Additional observations from a re-analysis of the deposited data

Results flagged for a closer look

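In 3 of 120 groups of 4 arrays, 1 array lay far from the other 3 by the ratio of its gap to the group's range, where chance gives about 6. Lrrc7 on WT P1 replicate 5 read 7.42 against 7.28 on the next array, a ratio of 0.891. Cnksr2 on Mef2c-het P1 replicate 8, an array that stood apart as a whole, read 7.57 against 8.05, a ratio of 0.880. Baiap2 on the same array read 8.13 against 7.86, a ratio of 0.879.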

How the results depend on the processing

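For the probe taken for a gene, no age difference of a member changed sign under any alternative run. Uncalled genotype differences did so in at least 1 alternative for 13 of 30 members at P30, 14 of 26 at P1 and 10 of 30 for the difference between ages. The alternative with the mean of a gene's probes is not in these counts of signs. The members called with age numbered 27 to 29 in WT mice and 25 to 29 in Mef2c-het mice under the alternatives, and 28 to 29 and 26 to 28 when 1 array was left out. No member was called between genotypes under any of them. The median rise in WT mice was 1.01 with median scaling, 1.69 with normexp background correction, 0.94 with no filter, 1.20 with detection p under 0.01, 0.96 with the mean of a gene's probes, 1.28 without the arrays that stood apart, 1.23 with the array cluster as a block (chosen after seeing the data) and 1.07 to 1.19 when 1 array was left out. In Mef2c-het mice it was 1.64 with normexp, 0.72 with no filter, 0.94 with the mean of probes and 1.12 to 1.25 when 1 array was left out. With no filter 34.7% of all probes were called in WT and 33.8% in Mef2c-het mice. The alternatives do not all hold the same members. With no filter Dlg1, Shank2 and Rasgrf2 entered, and without the arrays that stood apart Shank3 was not tested.

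Members with an unadjusted p under 0.05 at P30 numbered 3 without the arrays that stood apart, 2 in a fit of all 16 arrays, and 1 to 4 when 1 array was left out (4 without WT P30 replicate 2 or Mef2c-het P30 replicate 7, 2 without Mef2c-het P30 replicate 5). At P1 there was 1 under normexp, no filter, the mean of probes, trend and robust variances, without the arrays that stood apart, and in a fit of all 16 arrays, and 0 to 1 when 1 array was left out (1 without replicate 8 of either genotype). For the difference there were 2 under normexp, 3 without the arrays that stood apart, 2 with the array cluster as a block, and 1 to 3 when 1 array was left out (3 without WT P30 replicate 2, 2 without Mef2c-het P1 replicate 4 or Mef2c-het P30 replicate 5 or 7). The cause was not tested. Whether replicate numbers pair the samples is not in the labels, and the correlations do not settle it. Deviations of same-numbered arrays from their group means correlated at 0.185, -0.532 and 0.708 at P30 and at 0.090, 0.402 and 0.828 at P1. The differently numbered WT replicate 6 and Mef2c-het replicate 7 at P30, both among the arrays that stood apart, correlated at 0.729. With the replicate block, 5, 1 and 3 members had an unadjusted p under 0.05 for P30, P1 and the difference, and 0 were called.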

Other observations

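Other probes of 3 members, not those taken for the gene, also differed between the arrays that stood apart and the rest at P30. The difference was -0.50 for Cyfip2, -0.60 for Lin7b and -0.47 for Dlgap2. Of the other 2 probes of Dlgap2, 1 differed by 0.02 and the one taken for the gene by 0.20. The remaining probes of Lin7b differed by 0.32, by 0.005 and, for the one taken, by -0.22.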
